A study of Homo sapiens with 10 samples.

Results

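The measurements described here are those of RNA outside polysomes in Meg01 cells, a human megakaryoblastic leukaemia line, after knockdown of ATXN2. They are the 4 arrays of 10 in the series whose titles name gradient fractions 1 to 8: the sh95 arrays P1 and P3, and the shc002 arrays P1 and P3. sh95 is a short hairpin against ATXN2 and shc002 a control hairpin. Both came by lentivirus at a multiplicity of infection of 10, and both groups were grown with 10% fetal calf serum, so the control cells also carry a virus and a hairpin. GFP-positive cells were sorted at 48 hours, and their lysates were separated on sucrose of 7% to 46%. The knockdown rests on 1 hairpin in 1 cell line. An sh95 and an shc002 array with the same P number form a pair, and the other 6 arrays are 3 such pairs of polysomal RNA (P2, P4 and P5). The labels describe 3 independent experiments without tying the P numbers to them, so the p-values below measure only the spread between these arrays.

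ATXN2 encodes ataxin-2, a cytoplasmic RNA-binding protein that contacts poly(A)-binding protein and takes part in stress granules and in the control of mRNA stability and translation. In a sucrose gradient an mRNA moves further the more ribosomes it carries. The light fractions therefore hold free messenger ribonucleoproteins, single ribosomal subunits and monosomes together with noncoding RNAs, while actively translated mRNAs collect in the heavy fractions. An array of the light pool reads how much of each RNA lies there relative to the other RNAs of the pool. It gives no share of an mRNA off polysomes, and more of an RNA in the cell and a larger part of it in the light fractions cannot be told apart.

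The 4 arrays grouped by P number and not by hairpin. Over the probes kept, the sh95 and shc002 arrays of a pair correlated at r = 0.98 (P1) and 0.99 (P3), while arrays of different pairs correlated at 0.85 to 0.87. Each array held 47323 probes, and 19403 to 20662 of them were above background on the 4 subpolysomal arrays. Among marker genes of the labelled cell type, 5 of 10 on the array were above background on all 4 arrays (ITGA2B, GP1BA, GATA1, FLI1 and NFE2) and 3 were on none (ITGB3, PF4 and VWF). All 5 measured erythroid markers were above background on all 4, with fetal globin HBG2 at log2 14.32 and 14.16 in sh95 and 14.19 and 14.15 in shc002 RNA (P1 and P3). The same held for 1 of 8 monocyte and granulocyte markers, 0 of 5 lymphoid and 3 of 4 mast cell and basophil markers. The mean log2 level of the mast cell and basophil markers was 9.25 (P1) and 9.30 (P3) on sh95 arrays, against 9.69 and 9.24 on shc002 arrays, and their part in the results below was not tested. They include the mast cell protease CPA3, which differed by -1.11 in pair P1 and -0.07 in pair P3.

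ATXN2 itself was lower on both sh95 arrays. Its probe, the only one for the gene on the array, read log2 8.99 (P1) and 8.67 (P3) with sh95, against 9.31 and 9.87 with shc002. The groups did not overlap, and the shc002 arrays lay further apart than the sh95 arrays. The sh95 signal was 79.9% of its shc002 partner in pair P1 and 43.5% in pair P3. The mean difference was -0.76 (SE 0.47, 95% confidence interval -1.87 to 0.34, n = 2 against 2), or 58.9% of control. Unless a replicate block is named, each SE here and below comes from limma's 4 group means over all 10 arrays. It leaves out the pairing and takes in the spread between pairs and of the polysomal arrays. With the P numbers as a replicate block the SE of ATXN2 was 0.43. An exact two-sided permutation test gave p = 0.333, the smallest that 6 relabellings of 4 arrays allow, and limma's adjusted p was 1. The interval includes 0. The deficit was deeper in pair P3 than in pair P1, while across all genes the differences in pair P3 were the smaller ones.

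No probe passed the test between sh95 and shc002 subpolysomal RNA. limma called 0 of 26975 probes at a Benjamini-Hochberg adjusted p under 0.05 (0% called), with 249 at an unadjusted p under 0.05 (0.923%). With the P numbers as a replicate block it also called 0, with 592 at that unadjusted level (2.19%). What follows therefore describes values of 13931 genes (1 probe each), and all adjusted p-values are from these limma fits. Differences are log2, sh95 minus shc002, and "higher" or "lower" states the sign of the measured values only.

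The 2 pairs shared little. Differences spread with an SD of 0.26 over genes in pair P1 and 0.15 in pair P3. Their correlation across genes, given as a description since genes are no replicates, was r = 0.064 (rho = 0.050, n = 13931), and 0.11 among the 1764 brightest genes of those above background on all 4 arrays. In both pairs 3543 genes were higher (25.4%) and 3635 lower (26.1%), while 6736 had opposite signs. Beyond 0.5 lay 911 genes in pair P1 and 140 in pair P3. Beyond 0.5 in the same direction in both pairs lay 10 higher (0.0718%) and 10 lower genes (0.0718%), against 8 with opposite directions, and beyond 1 there was none in either direction. The balance of higher and lower genes rests on the scaling, since with the deposited intensities taken as they are, or with each array centred on its median, 38 were higher and 10 lower (79.2% higher, against 50% after quantile normalization). That excess sat among bright probes: over those 1764 brightest genes the deposited intensities gave median differences of 0.31 (P1) and 0.07 (P3), against 0.04 and 0 after quantile normalization.

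**Figure D1:**
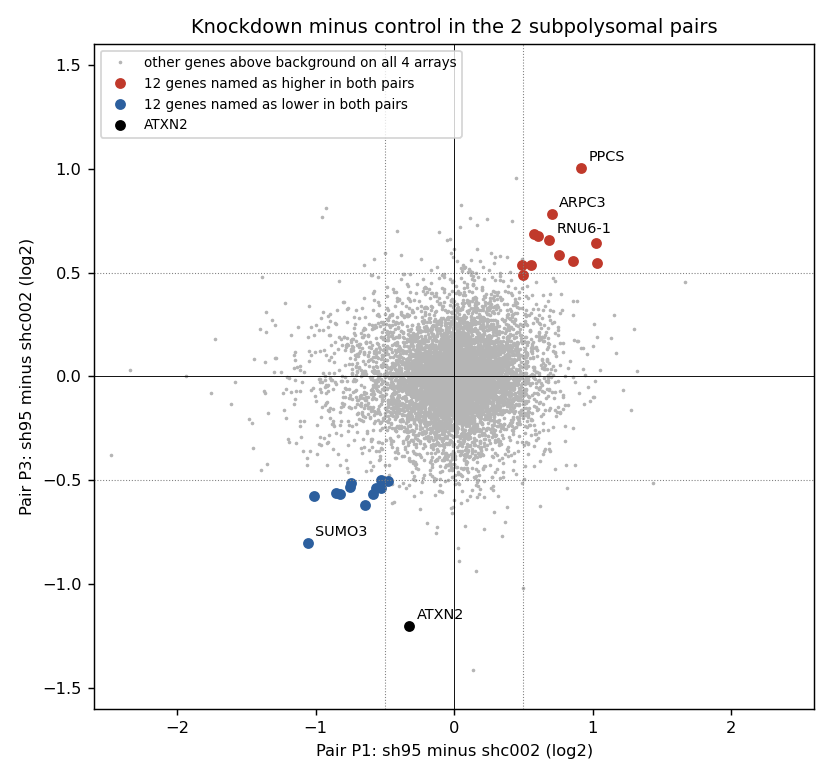
Log2 difference between sh95 and shc002 subpolysomal RNA for each gene above background on all 4 arrays, pair P1 on the x axis and pair P3 on the y axis, with dotted lines at 0.5 and -0.5. The cloud is wider along P1 than along P3 (SD 0.31 against 0.18), and the coloured genes are those with the largest difference shared by both pairs, with ATXN2 in black.

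The genes named next are the 12 higher and 12 lower with the largest smaller-of-the-pairs difference. These differences chose them and are given as a description, with no test. The smaller difference ran from 0.49 to 0.92 among the higher genes and from 0.48 to 0.80 among the lower ones. Just outside the rule were MAPKAPK5 (0.49 and 0.56) and ATAD3A (-0.47 and -0.48), values next to those of the last genes inside.

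Of the 12 higher genes 4 were small noncoding RNAs. RNU6-1, the U6 RNA at the catalytic centre of the spliceosome, read log2 10.14 (P1) and 10.12 (P3) in sh95 RNA, against 9.45 and 9.47 in shc002 RNA, a mean difference of 0.67 (SE 0.17). With the replicate block the SE was 0.15. Its groups were well separated, since arrays of the 2 pairs read nearly the same level. SNORA18, an H/ACA small nucleolar RNA of the kind that guides pseudouridylation, read 9.32 and 9.81 with sh95, against 8.72 and 9.14 with shc002 (0.64, SE 0.25), again without overlap. Its SE was 0.10 with the replicate block. RN7SK, the scaffold RNA that holds the elongation factor P-TEFb inactive, was at 8.65 and 10.56 in sh95 cells, against 8.08 and 9.87 in shc002 cells, and a dimmer second probe differed by 0.20 and 0.65. BCYRN1, a primate Alu-derived cytoplasmic RNA described as a repressor of translation initiation, was at 9.63 and 11.03 with sh95, against 8.87 and 10.45 with shc002. For RN7SK and BCYRN1 the pairs differed more than the hairpins, so the groups overlapped. U6, 7SK and BCYRN1 have near-identical genomic copies that a probe may not separate.

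The classes of small nuclear and small nucleolar RNA held more higher than lower genes, while long noncoding RNAs stood near all genes. Of 11 small nuclear RNAs measured, 7 were higher in both pairs (63.6%) and 1 lower (9.09%). Among 134 small nucleolar RNAs 51 were higher (38.1%) and 23 lower (17.2%). Only 3 of these small nuclear RNAs were above background on all 4 arrays, 2 higher and 1 lower, and 61 of the small nucleolar RNAs, 26 higher and 10 lower. The 2 higher small nuclear RNAs were RNU6-1 and RN7SK, and SNORA18 is among the higher small nucleolar RNAs. All were named above for their values, so these counts are no separate evidence for them. Protein-coding genes stood at 24.9% higher and 26.4% lower of 12907, and long noncoding RNAs at 26.1% and 23.7% of 410. Transcribed pseudogenes stood at 35.8% and 24.5% of 310, and microRNA genes at 28.1% and 19.3% of 114. The shifts were small, with medians of 0.035 (P1) and 0.011 (P3) for small nucleolar RNAs and 0.13 and 0.039 for small nuclear RNAs. Among 18 listed small RNAs 9 were higher and 4 lower, and of the 9 above background on all 4 arrays 4 were higher and 3 lower (medians 0.06 and -0.02). SNORD3A, the U3 RNA of ribosomal RNA processing, stood at 0.48 and 0.23. RNU1-1, the U1 RNA that recognises the splice donor site, was lower, at -0.24 and -0.13.

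PPCS, CPOX, TFB1M, COX17 and RFESD were among the protein-coding genes on the higher side. PPCS, which joins phosphopantothenate and cysteine on the way to coenzyme A, had the largest shared difference, with log2 11.76 and 10.53 in sh95 RNA, against 10.85 and 9.53 in shc002 RNA (P1 and P3). A second PPCS probe differed by 0.65 and 0.98. CPOX, coproporphyrinogen oxidase of haem synthesis, was at 10.55 and 8.99 with sh95, against 9.52 and 8.34 with shc002. TFB1M, a methyltransferase of mitochondrial ribosomal RNA, read 9.20 and 9.17 with sh95, against 8.71 and 8.64 with shc002, without overlap. COX17, the copper chaperone of cytochrome c oxidase, and RFESD, named for a Rieske iron-sulfur domain, were higher by 0.49 in each pair and by 0.56 and 0.54. The RFESD groups did not overlap, and its 2 other probes were also higher in both pairs (0.20 and 0.38; 0.27 and 0.30).

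The remaining higher genes were ARPC3, CLOCK and ADORA1. ARPC3, a subunit of the Arp2/3 complex that branches actin filaments, was at 9.22 and 11.50 with sh95, against 8.51 and 10.72 with shc002. Its pairs stood over 2 log2 units apart and its groups overlapped. CLOCK, a transcription factor of the circadian oscillator, differed by 1.03 and 0.54, while its other probe differed by 0.10 and 0.05. The probes of CLOCK thus disagree in size. ADORA1, the adenosine A1 receptor, differed by 0.86 and 0.56. Another ADORA1 probe was above background on 1 of the 4 arrays and the remaining ones on none, so they give no direction. The named ADORA1 probe was above background on all 4.

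On the lower side SUMO3, a ubiquitin-like modifier, had the largest shared difference, with log2 11.87 and 10.41 in sh95 RNA, against 12.93 and 11.21 in shc002 RNA (mean -0.93, SE 0.77). The replicate block gave it an SE of 0.27. DENR, which with MCTS1 releases tRNA and mRNA from recycled ribosomal subunits and aids reinitiation, read 11.04 and 9.55 with sh95, against 11.78 and 10.06 with shc002. Another DENR probe differed by 0.24 and -0.04 and does not share that pattern. RUSC1, an adaptor of vesicle transport, was at 9.42 and 9.68 in sh95 cells, against 10.06 and 10.30 in shc002 cells (-0.63, SE 0.25). With the replicate block its SE was 0.18. Its groups did not overlap.

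BTG1, KLF6, PMAIP1 and TMBIM6 were also among the lower genes. BTG1, an antiproliferative protein that binds CCR4-NOT deadenylase subunits, read 11.02 and 10.98 with sh95, against 11.87 and 11.54 with shc002, without overlap. KLF6, a zinc-finger transcription factor with an immediate-early response, was at 8.99 and 11.76 with sh95, against 10.00 and 12.34 with shc002. Its level differed between pairs by far more than between hairpins. PMAIP1, the p53-induced BH3 protein NOXA, differed by -0.57 and -0.54, and its other probe by -0.45 and -0.27. TMBIM6, the Bax inhibitor of the endoplasmic reticulum, was at 9.80 and 10.31 with sh95, against 10.55 and 10.84 with shc002, without overlap.

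The other lower genes were RPA1, the large subunit of the single-stranded DNA-binding replication protein A (-0.59 and -0.57), DCTN5 of the dynactin complex (-0.82 and -0.56), CDC42SE2, a small effector of CDC42 (-0.53 and -0.54), PTDSS2, a phosphatidylserine synthase (-0.53 and -0.50), and MFGE8, which bridges phosphatidylserine to integrins (-0.48 and -0.50). RPA1, CDC42SE2 and PTDSS2 had groups that did not overlap, and the other probes of RPA1 and CDC42SE2 were lower in both pairs. In all, 4 of the 12 higher and 6 of the 12 lower genes had groups that did not overlap, where 7.74% and 9.6% of all genes did, as the choice by shared difference favours. Over 9 of the named genes with 11 other kept probes, 9 probes had the same direction in both pairs, and 1, for PPCS, passed 0.3 in both.

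**Figure D2:**
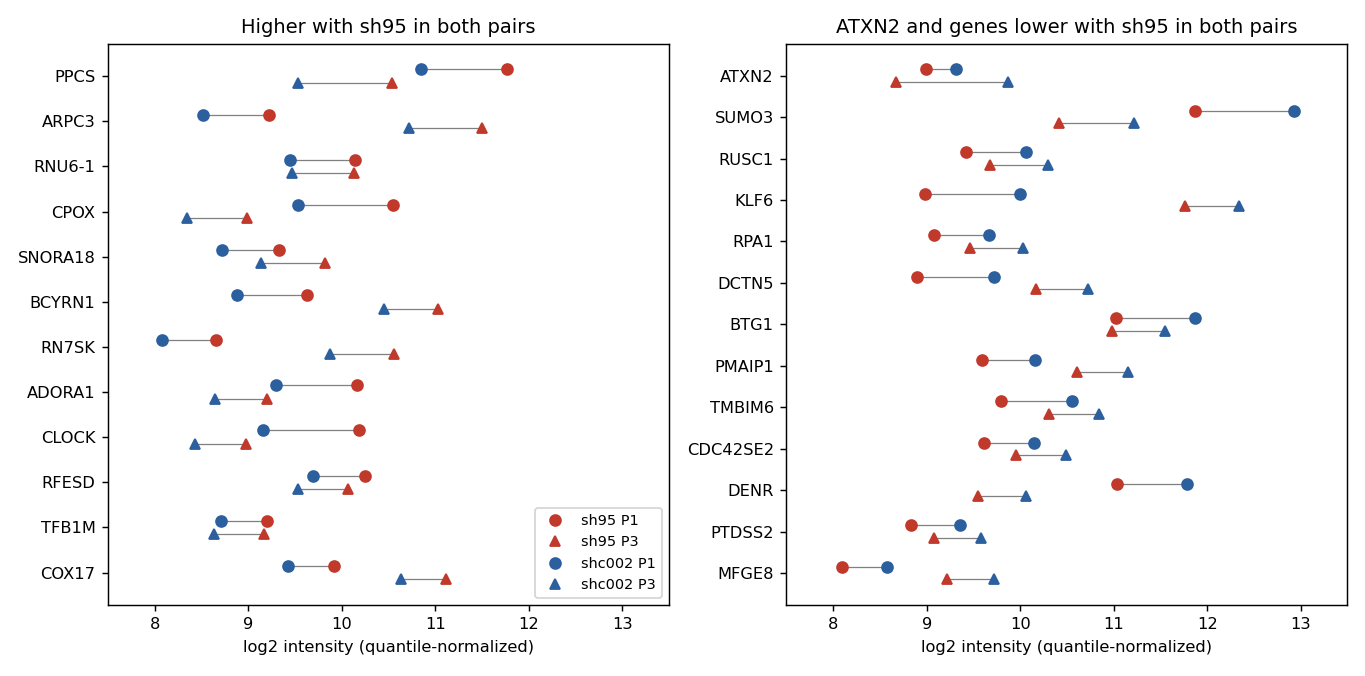
Quantile-normalized log2 intensity of the 12 genes higher with sh95 (left) and of ATXN2 and the 12 lower genes (right) on each subpolysomal array. Red points are sh95 and blue points shc002, circles pair P1 and triangles pair P3, and a line joins the arrays of a pair; for KLF6 and ARPC3 the gap between pairs exceeds that between hairpins.

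The polysomal pairs were not used to choose these genes. Of the 12 higher genes, the mean polysomal difference was also positive for 4, and TFB1M alone was higher in all 3 polysomal pairs (0.21, 0.11 and 0.11 in P2, P4 and P5). RNU6-1 alone was lower in all 3 (-0.56, -0.04 and -0.57). Among the 12 lower genes the polysomal mean was negative for 7, and RUSC1, DENR and MFGE8 were lower in all 3 pairs. DENR differed there by -0.94, -0.55 and -0.41, and RUSC1 by -0.77, -0.66 and -0.07. For comparison, of the genes above background on all 4 arrays and higher in both subpolysomal pairs, 18.4% of 2253 were higher in all 3 polysomal pairs, and of those lower in both, 10.4% of 2317 were lower in all 3. The opposite sign in all 3 was found for 10.2% of the 2253 higher genes and 17.5% of the 2317 lower ones, against 1 and 0 of the 12 named in each direction. limma called 0 of 26975 probes (0%) for a change of the hairpin difference between the pools, and 318 had an unadjusted p under 0.05 (983 with the replicate block). Pair P4 had the same direction as the subpolysomal pairs for 10 of 12 and 11 of 12 genes, against 1 and 5 in pair P2 and 6 and 5 in pair P5. The matching share over all genes was not counted for single pairs. These counts therefore show neither agreement nor disagreement particular to the named genes. Over probes, the 2 arrays of a pair correlated at 0.94 (P2), 0.99 (P4) and 0.95 (P5).

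**Figure D3:**
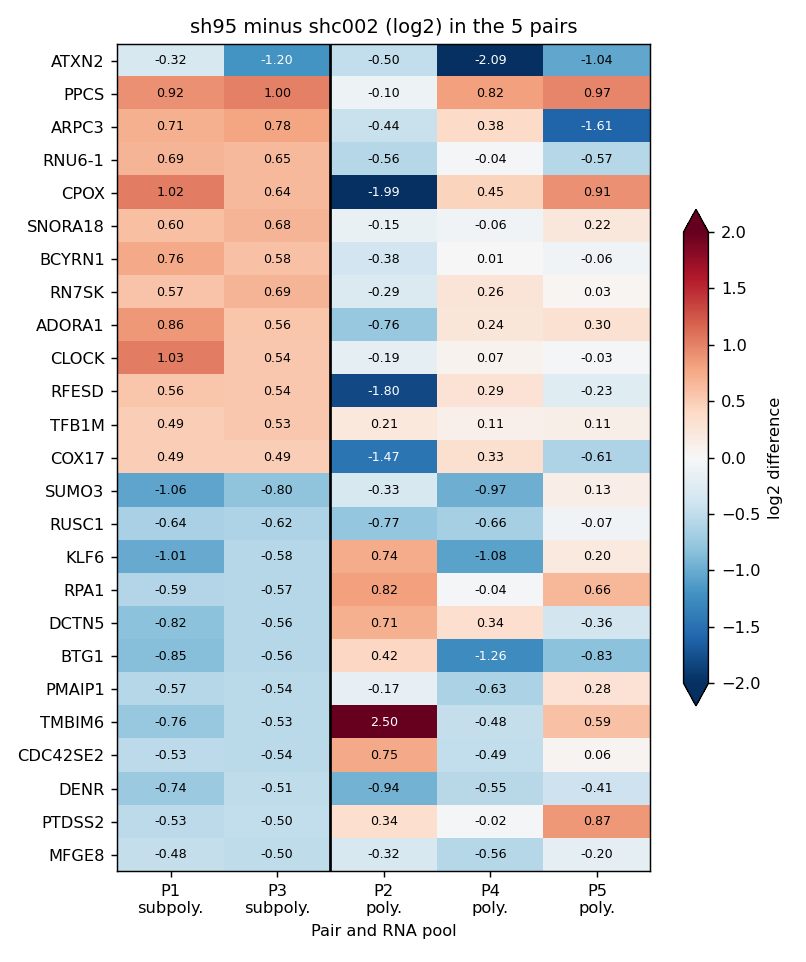
Log2 difference between sh95 and shc002 for ATXN2 and the 24 named genes in the 2 subpolysomal and 3 polysomal pairs, red for higher and blue for lower with sh95. ATXN2 is negative in all 5 columns, while most genes chosen in the first 2 columns change sign in at least 1 of the others.

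Genes with 1 direction in all 5 pairs are described here after their values were seen, with no test of their number. Of 7796 genes above background on all 10 arrays, 362 were higher (4.64%) and 194 lower (2.49%) in every pair, and only 2 and 4 of them exceeded 0.3 in each. The 4 lower ones were NCK2, DENR, MARCKSL1 and ATXN2. NCK2, an SH2/SH3 adaptor between receptors and actin, read 9.56 and 9.72 in sh95, against 10.01 and 10.33 in shc002 subpolysomal RNA, and differed by -0.81, -1.21 and -0.58 in the polysomal pairs. MARCKSL1, an actin-binding relative of MARCKS, differed by -0.45 and -0.34 in subpolysomal pairs and by -0.67, -0.35 and -0.83 in polysomal ones. The 2 higher ones were ANXA1, a phospholipid-binding annexin (0.33 and 0.46, then 1.23, 0.44 and 0.58), and ZBED5, derived from a transposase (0.46 and 0.41, then 0.64, 0.33 and 0.69).

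Gene lists by function were compared as medians and counts. They hold 1052 genes, 915 of them measured. None of these was called, and over all 13931 genes the median difference was 0.003 in pair P1 and -0.003 in pair P3. The list medians lay between -0.18 and 0.16 in pair P1 and between -0.40 and 0.09 in pair P3, and for 21 of 35 lists both pairs fell on the same side of 0.

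**Figure D4:**
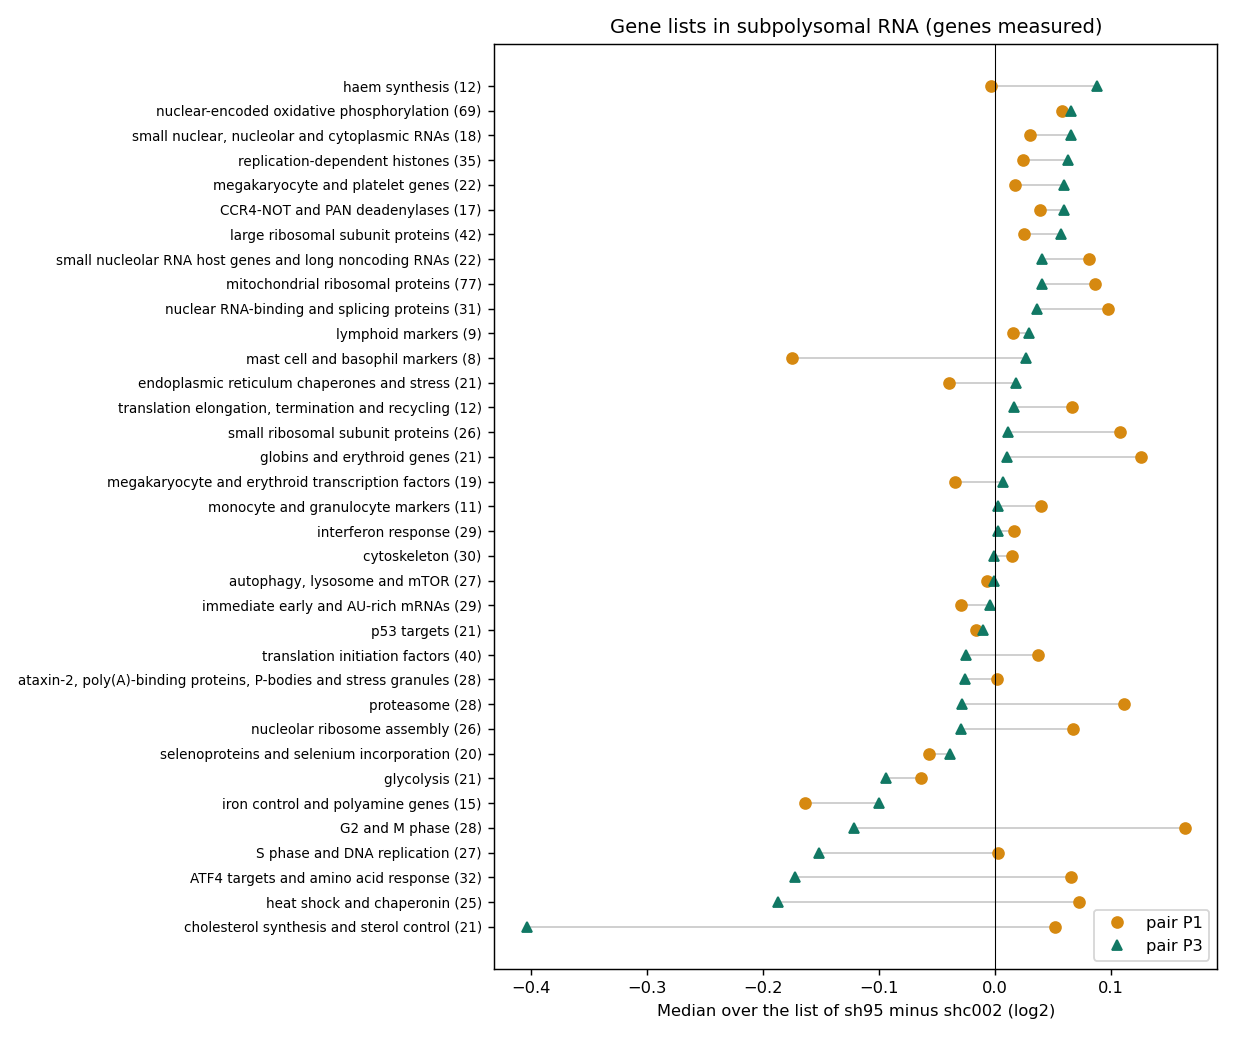
Median log2 difference between sh95 and shc002 subpolysomal RNA over the measured genes of each list (number in parentheses), circles for pair P1 and triangles for pair P3. Most medians lie near 0 in both pairs, and the list farthest from 0 is cholesterol synthesis in pair P3, at -0.40, with P1 at 0.05.

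Cholesterol synthesis genes were lower in pair P3 and not in pair P1. The list covers the enzymes from acetyl-CoA to cholesterol and the sterol sensors that control them through SREBP transcription factors. All 21 measured members were lower with sh95 in pair P3 (median -0.40), where 7160 of 13931 genes were lower, while 13 were higher in pair P1 (median 0.05). Counted over both pairs, 8 were lower and 0 higher. HMGCS1, the cytosolic synthase that makes HMG-CoA, read log2 9.75 (P1) and 10.03 (P3) with sh95, against 9.25 and 11.04 with shc002. MVD, the mevalonate pathway decarboxylase, was at 7.75 and 8.78 in sh95 RNA, against 7.56 and 9.76 in shc002 RNA, and was above background on 3 of the 4 arrays. DHCR7, which reduces 7-dehydrocholesterol to cholesterol, was at 8.09 and 10.42 with sh95, against 8.22 and 11.18 with shc002. On these genes the P3 arrays stood above the P1 arrays with either hairpin, and the hairpins differed mostly in P3. MSMO1, SC5D and IDI1 followed, with -0.72, -0.73 and -0.59 in pair P3 and -0.12, 0.22 and 0.09 in pair P1. In the polysomal pairs the list's median was -0.24 (P2), -0.23 (P4) and 0.08 (P5).

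Stretches of the promoters of HMGCS1, MVD and DHCR7, the members with the deepest difference in pair P3 that hold the motif, are shown because sterol promoters are known for pairing SREBP sites with the CCAAT box bound by NF-Y. List members on the chromosome of SQLE (-0.40 in pair P3) were left out before this choice. A gene can have several annotated starts, with 35116 windows over 27305 genes, and the window with the most matches was used. Each line gives 29 bases around a match within the 250 bases upstream of that start, from RefSeq (GRCh38.p14). Lines run 5′ to 3′ on the minus strand, which carries each gene. Capitals mark CCAAT or its reverse complement ATTGG.
HMGCS1, chr5:43313551-43313579: agtttccttttgATTGGtagaagccggac
HMGCS1, chr5:43313496-43313524: ctaccggccgcgATTGGctgtgggagcca
MVD, chr16:88663234-88663262: ccgatcccgtccATTGGctgagaggtaat
MVD, chr16:88663195-88663223: gactcgccgctgATTGGtcggcgcgcgag
MVD, chr16:88663160-88663188: ggctcgcacgggCCAATcctgtggtagcg
DHCR7, chr11:71448471-71448499: caggctcctcgaCCAATcacggggcgcgg
DHCR7, chr11:71448425-71448453: ggtccgcctccgATTGGcaggcaatcgct
In the window used HMGCS1 holds 2 matches, MVD 3 and DHCR7 2. These counts are the highest over the annotated starts of each gene. The motif, searched on both strands, occurs in 16 of the 19 list members with a window (84.2%), against 37% of 27305 genes. A gene counted if any of its windows held a match. The 27305 are all genes with a window, whether measured here or not, so the 2 shares are not matched. A match describes the sequence and shows no binding.

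**Figure D5:**
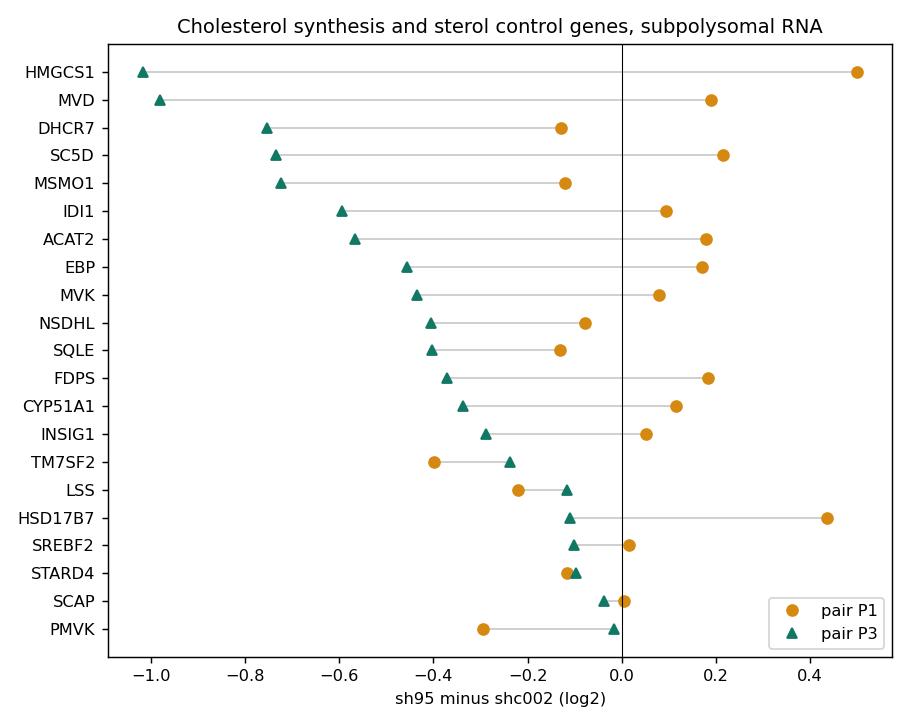
Log2 difference between sh95 and shc002 subpolysomal RNA for the 21 measured cholesterol synthesis and sterol control genes, circles for pair P1 and triangles for pair P3. Every P3 point lies below 0, while 13 of the P1 points lie above it.

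For the translation machinery itself the values depended on the scaling. Of 42 large-subunit ribosomal proteins 12 were higher and 5 lower in both pairs (medians 0.03 and 0.06), and of 26 small-subunit proteins 8 and 3 (0.11 and 0.01). With the deposited intensities unnormalized, 30 of 42 and 20 of 26 were higher and 0 lower, with medians of 0.37 and 0.30 and of 0.71 and 0.29. Under that scaling 47.7% of the 1764 brightest genes were also higher in both pairs and 11.4% lower. Initiation factors had 8 of 40 higher and 14 lower, but 15 higher and 9 lower with the deposited intensities and 12 and 11 with the mean over a gene's probes. Of 13 measured subunits of eIF3, which holds the small subunit on the mRNA, 4 were lower, 2 higher and 7 opposed between the pairs. EIF3B stood at -0.91 and -0.31, EIF3G at -0.57 and -0.22 and EIF3I at -0.55 and -0.21, while EIF3H stood at 0.41 and 0.08. EIF2S3, the gamma subunit of the initiator tRNA carrier eIF2, was higher by 0.51 and 0.27. EIF2S3 and these 4 eIF3 subunits kept their direction with the deposited intensities. Elongation and recycling factors had 5 of 12 higher and 2 lower (8 and 0 with the deposited intensities).

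The genes listed with ataxin-2 had no common direction. Leaving out ATXN2 itself, 5 of 27 genes for ataxin-2 relatives, poly(A)-binding proteins, P-bodies and stress granules were higher and 6 lower (medians 0.01 and -0.02). LSM14A, an Sm-like P-body protein that represses translation, was higher by 0.86 and 0.29, and FXR1, a relative of the fragile X protein, by 0.28 and 0.32. PABPC1, the cytoplasmic poly(A)-binding protein, differed by -0.18 and -0.10, but by 0.62 and 0.24 with the deposited intensities. DCP2, the decapping enzyme, differed by -0.16 and -0.16. Among 17 genes for deadenylases and proteins that bind them 7 were higher, including CNOT7, a catalytic subunit, at 0.48 and 0.10. The 2 lower ones were CNOT9, a CCR4-NOT subunit, at -0.47 and -0.21 and BTG1, described above.

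Mitochondrial lists had more higher than lower genes. Of 69 nuclear-encoded oxidative phosphorylation genes 30 were higher (43.5%) and 13 lower (18.8%), and of 77 mitochondrial ribosomal proteins 30 (39%) and 13 (16.9%), against 25.4% and 26.1% of all genes. Examples are NDUFB6 of complex I at 0.53 and 0.38, ATP5F1C of the ATP synthase at 0.33 and 0.48 and COX7C of cytochrome c oxidase at 0.57 and 0.32. MRPL33 stood at 0.41 and 0.46 and MRPS25 at 0.37 and 0.27, while MRPL49 went the other way at -0.30 and -0.31. Median differences were under 0.1 in each pair for both lists. With the deposited intensities 49 oxidative phosphorylation genes were higher and 6 lower (medians 0.23 and 0.20), and 37 mitochondrial ribosomal proteins higher and 9 lower (0.24 and 0.04). In polysomal RNA the medians were -0.41, 0.22 and -0.19 for oxidative phosphorylation and -0.31, 0.02 and -0.02 for mitochondrial ribosomal proteins (P2, P4 and P5).

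Lineage genes of the megakaryocyte and red cell showed mixed values. Among 22 megakaryocyte and platelet genes 6 were higher and 4 lower, and among 19 transcription factors of both lineages 4 and 5. LMO2, the bridging protein of the GATA1 and TAL1 complex, differed by 0.12 and 0.56. Globin and erythroid genes had 8 of 21 higher and 2 lower, with embryonic globin HBE1 at 0.91 and 0.14, HBA1 at 0.32 and 0.22 and BLVRB, a biliverdin reductase, at 0.75 and 0.24. XK, a red cell membrane protein, was lower, at -0.54 and -0.38. Haem synthesis had 4 of 12 higher and 3 lower. With CPOX, the transporters ABCB6 (0.52 and 0.29) and ABCB10 (0.31 and 0.33) were higher, and SLC25A38, which brings glycine into mitochondria, was lower (-0.28 and -0.25).

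Glycolysis, iron and polyamine, and selenoprotein lists had more lower than higher genes, a balance that the first 2 lists lost with the deposited intensities. Glycolysis had 2 of 21 higher and 8 lower (3 and 3 with the deposited intensities), with TPI1 at -0.58 and -0.43 and ENO1 at -0.42 and -0.26. Iron control and polyamine genes had 2 of 15 higher and 8 lower (4 and 3 with the deposited intensities). FTL, the light chain of ferritin, read log2 11.68 and 14.07 with sh95, against 14.16 and 14.44 with shc002, so its difference lay mostly in pair P1. SMS, spermine synthase, differed by -0.37 and -0.22. With the deposited intensities the P1 medians of both lists turned positive (0.04 and 0.20), and ENO1 (0.09) and FTL (0.06) each turned positive in 1 pair. Selenoprotein genes had 1 of 20 higher and 9 lower, SELENOT at -0.71 and -0.23, and their medians (-0.06 and -0.04) kept their sign under the 3 other scalings.

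The heat shock, ATF4 target, and G2 and M phase lists differed between the pairs. Heat shock and chaperonin genes had 20 of 25 lower in pair P3 (median -0.19) against a P1 median of 0.07, and ATF4 targets of the amino acid response 25 of 32 (-0.17 against 0.07). DNAJB1, an HSP40 co-chaperone, was lower in both pairs at -0.29 and -0.58 and TRIB3, a pseudokinase induced by ATF4, at -1.14 and -0.32. Of 28 G2 and M phase genes 21 were higher in pair P1 and 23 lower in pair P3 (medians 0.16 and -0.12). S phase genes had 6 of 27 higher in both pairs, 13 lower and 8 opposed between the pairs (medians 0.003 and -0.15). The helicase subunit MCM5 stood at -0.63 and -0.27 and RFC3, a clamp loader subunit, at -0.15 and -0.51. Replication-dependent histones, whose mRNAs lack a poly(A) tail, had 16 of 35 higher and 4 lower, with medians of only 0.02 and 0.06. Only 14 of these histone genes were above background on all 4 arrays, 7 higher and 2 lower.

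Among the remaining lists, nuclear RNA-binding and splicing proteins had 15 of 31 higher and 5 lower (medians 0.10 and 0.04), and hosts of small nucleolar RNAs with other long noncoding RNAs 11 of 22 and 5. SNHG6, a host of that kind, was higher by 0.61 and 0.21. Immediate early and AU-rich mRNAs had 9 of 29 higher and 11 lower, with CCL2, a monocyte chemokine, at 0.41 and 0.75, PIM1, a serine/threonine kinase, at -0.43 and -0.39 and MYC at -0.62 and -0.15. The counts of higher and lower were 11 and 7 of 29 for interferon response, 5 and 6 of 21 for p53 targets, 7 and 4 of 28 for the proteasome, 4 and 4 of 21 for endoplasmic reticulum stress, 8 and 6 of 26 for nucleolar ribosome assembly, 6 and 7 of 27 for autophagy and mTOR, and 6 and 5 of 30 for the cytoskeleton. Marker lists of monocytes and granulocytes (4 and 0 of 11), lymphoid cells (3 and 1 of 9) and mast cells (2 and 2 of 8) rest on few genes.

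Genes near the detection limit add no large difference. In both sh95 arrays and neither shc002 array 249 genes were above background, and 153 the other way round, drawn from 18697 kept probes with 1 symbol. The sh95 array P3 had 20662 of all probes above background, against 19403 to 19636 on the other subpolysomal arrays. Whether this underlies the unequal counts was not tested. The highest bound on a mean was for OR2T12, an olfactory receptor gene, at least 1.16-fold higher with sh95. Its measured means were log2 7.84 in sh95 and 7.60 in shc002 RNA. It read 8.06 (P1) and 7.63 (P3) with sh95, against 7.59 and 7.61 with shc002, so the difference lay mostly in pair P1. In the other direction the mean of AGAP2-AS1 was at least 1.14-fold lower with sh95, mostly through pair P3. AGAP2-AS1 read 7.59 (P1) and 7.57 (P3) with sh95, against 7.67 and 7.94 with shc002. Bounds set the mean of the brighter group against the lowest signal above background on the dimmer arrays.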

How the data were processed

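The deposited processed probe intensities were used. They are linear, with array medians of 193 to 194, per the values themselves; R 2.15 is the tool named in the submitters' processing notes, and no source names the authors' background correction or normalization. A table of unnormalized signals was not used, because its 20 columns match no sample label.

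Here log2 of these intensities was taken and the 10 arrays were brought to the same quantiles. This removes differences in distribution between arrays, so a difference is relative to other probes. Background was modelled per array by mirroring log2 values below their mode; probes above its 0.05 upper tail on at least 2 arrays were kept (26975, 57%), 18697 of them with 1 symbol. Of all probes 30113 had 1 symbol, 8 several and 17202 none; 30074 were matched to RefSeq genes of GRCh38.p14. The brightest kept probe stood for a gene. The platform annotation that names probes can be old.

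limma 3.58.1 in R 4.3.3 was fitted as 4 group means to all 10 arrays (lmFit, eBayes, two-sided, Benjamini-Hochberg), and checked on simulated data. The P numbers pair the arrays: deviations from group means correlated at 0.92 in both subpolysomal pairs and at 0.76, 0.77 and 0.47 in P2, P4 and P5; with 2 arrays a group, the first 2 values are one. The number of arrays limits the precision. Alternatives were other scalings, filters, probe choice, thresholds, arrays left out and a replicate block.

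Named genes were the 12 with the largest smaller-of-the-pairs difference in each direction, up to 3 per list and direction, and 5 each at the detection limit, of which those in the text are shown. Members, lists and rules were chosen with earlier results of these data known.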

Additional observations from a re-analysis of the deposited data

Results flagged for a closer look

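RNU6-1 was higher with sh95 in both subpolysomal pairs (0.69 and 0.65) and lower in all 3 polysomal pairs (-0.56, -0.04 and -0.57). The change of the difference between pools was 1.06 (SE 0.22), with a limma adjusted p of 1, or 0.937 with the replicate block, so it did not pass. The gene was named for its subpolysomal difference, and 10.2% of the 2253 genes higher in both subpolysomal pairs were likewise lower in all 3 polysomal ones. For 4 gene lists every subpolysomal pair had a median on one side of 0 and every polysomal pair one on the other, and these differences were not tested. The subpolysomal mean minus the polysomal mean of the medians was 0.40 for small ribosomal subunit proteins, 0.13 for replication-dependent histones, 0.088 for small nuclear, nucleolar and cytoplasmic RNAs and -0.068 for autophagy, lysosome and mTOR genes. For small ribosomal subunit proteins the medians were 0.11 (P1) and 0.01 (P3), against -0.26 (P2), -0.02 (P4) and -0.75 (P5). The 0.40 thus rests mostly on P2 and P5, and P3 and P4 lay near 0. Of the 35 histone genes measured, only 14 were above background on all 4 subpolysomal arrays. The pattern of the small RNA list was lost when only its 9 genes above background on all 4 arrays were kept, since the P3 median was then -0.018. That of the autophagy list was lost with the deposited intensities or median centring, where its P1 median turned positive.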

How the results depend on the processing

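The number of probes called stayed 0 under each alternative run, the replicate block included, which left the ATXN2 difference at -0.76 and changed no call. Without single arrays or pairs the ATXN2 difference ran from -1.20 to -0.32. The 10 higher and 10 lower shared genes became 38 higher with the deposited intensities or with median centring (r between pairs 0.13 under both), 6 and 6 with the mean over a gene's probes, 85 and 99 past 0.3, and 0 and 0 past 1. Of the 24 named genes none changed sign in a pair under the other scalings or with the mean over a gene's probes. That mean could change only 9 of them, as 15 had no other kept probe. The filters could change none, since the named probes and their values stayed the same. Leaving out shc002 P1 or sh95 P3 turned the mean of ARPC3, BCYRN1, COX17, DENR and RN7SK. Leaving out shc002 P3 or sh95 P1 turned that of KLF6 and MFGE8, as those settings compare arrays of different pairs. Leaving out a whole pair could turn none, because the genes were chosen for the same sign in both pairs. With the deposited intensities or median centring the P1 median turned sign for haem synthesis, glycolysis, immediate early, iron and polyamine, and autophagy lists, and the P3 median for proteasome and p53 lists; the cytoskeleton's P3 median turned under all 3 other scalings. Under these 2 scalings the excess of lower over higher genes was lost or turned for the initiation factor, ataxin-2, lineage transcription factor, heat shock, G2 and M phase, p53, glycolysis, immediate early, iron and polyamine, and autophagy lists. The filters or the probe mean turned a median in other lists too, among them large ribosomal subunit proteins in P1 (-0.03 with the probe mean). The shared counts and list medians were not recomputed with arrays left out.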

Other observations

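The metallothioneins, small metal-binding proteins induced by zinc and glucocorticoids, differed between the 2 pairs. This family was chosen after its values were seen. All 6 measured genes were higher with sh95 in pair P3 (median 0.64), and 4 of the 6 were lower in pair P1 (median -0.37); over all genes 23.1% were lower in P1 and higher in P3. MT1E read log2 9.53 (P1) and 9.49 (P3) in sh95 RNA, against 10.49 and 8.72 in shc002 RNA, so its sh95 arrays nearly coincided and its shc002 arrays lay apart. MT2A differed by 0.05 and 0.83. In the polysomal pairs the family's median was -0.44 (P2), 0.73 (P4) and -1.16 (P5). Related metallothionein sequences may share a probe's signal.

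Other genes beyond 0.5 with opposite directions included INKA1, an inhibitor of the kinase PAK4 (-0.92 and 0.81), IER3, an immediate early gene (0.62 and -0.62), and UROS, uroporphyrinogen synthase of haem synthesis (-0.58 and 0.57). UROS was at 12.11 and 9.71 with sh95, against 12.69 and 9.14 with shc002.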
